A study of Homo sapiens with 6 samples.

Results

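The classical protein tyrosine phosphatases are described here across 6 RNA-seq libraries. Their genes were taken by symbol, as Ptpr followed by 1 letter and an optional number for the receptor type, or Ptpn followed by a number for the non-receptor type, with 1 non-receptor gene left out. The rule found 37 of the 38986 gene symbols, 21 of the receptor type and 16 of the non-receptor type. Of these, 22 passed a filter on low counts, 10 receptor-type and 12 non-receptor genes.

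The 3 STAT6-labelled libraries carry the genotype STAT6 overexpression and the cell line 293T, and the design text calls these cells positive for mCherry and for wild-type STAT6. The 3 Mock-labelled libraries carry the genotype WT and the same cell line, again positive for mCherry. 293T is an established human line derived from embryonic kidney, and STAT6 is the transcription factor that answers to interleukin 4 and interleukin 13. The labels give no vector, dose, time or culture for a library, so the p-values rest on variation between libraries that may be purely technical. In bulk RNA, fewer cells with a transcript and less of it per cell cannot be told apart.

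What the files hold goes against the labels in organism and in direction. Of the symbols, 30 were identical to a human symbol of RefSeq and 16635 matched one only in capitals, the form used for mouse genes. Stat6 itself was at 35.1, 33.7 and 32.1 CPM (counts scaled to the same library total) in the STAT6-labelled libraries, against 95.2, 95.5 and 92.8 CPM in the Mock-labelled ones (log2 fold change -1.49, SE 0.04, adjusted p = 7.47e-26). Adjusted p-values are from the quasi-likelihood test of edgeR with Benjamini-Hochberg adjustment over all genes tested, and a log2 fold change is STAT6 over Mock. Every direction below therefore follows the labels alone. Defining markers of embryonic kidney were low (6 genes summed to 3.38 to 3.86 CPM in the STAT6-labelled libraries and 0.216 to 0.360 CPM in the Mock-labelled ones, with Pax8 and Six2 at 0 counts). Most of the kidney sum with the STAT6 label was Lhx1, at 79, 59 and 60 counts there and 0 in each Mock-labelled library. In contrast, 7 pigment cell markers summed to 16700 to 16800 CPM with the STAT6 label and 14400 to 14700 CPM with the Mock label. The pigment genes differed in direction. Tyr was at 29.3, 29.7 and 28.2 CPM with the STAT6 label and 307.4, 304.5 and 297.2 CPM with the Mock label. Dct was at 6195, 6161 and 6181 CPM with the STAT6 label and 4176, 4228 and 4389 CPM with the Mock label. Library totals lay between 19894773 and 23648304 counts in the STAT6-labelled libraries and between 22368757 and 29802693 in the Mock-labelled ones.

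Protein tyrosine phosphatases remove phosphate from tyrosine residues and so oppose, or in some cases switch on, tyrosine kinases. Receptor-type members cross the plasma membrane and carry ectodomains that bind matrix proteoglycans, adhesion molecules or a copy of themselves. Non-receptor members lie inside the cell, where SH2, FERM, PDZ, proline-rich or lipid-binding regions place them at receptors, junctions, endosomes or the endoplasmic reticulum. Ptprv has no human symbol of the same letters in the reference used here, and its human counterpart is a transcribed pseudogene. The other 36 genes have one.

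Ptprd, Ptprv and Ptpn7 had the largest folds among the phosphatase genes tested with edgeR, and each was close to silent in one group. Ptprb, low in both groups, and the abundant Ptpn11 were the other members past the threshold at 1.5-fold or more. Among receptor-type genes 5 were higher and 4 lower in the STAT6-labelled libraries, and 1 did not pass an adjusted p of 0.05. Among non-receptor genes 7 were higher and 4 lower, and 1 did not pass. Of all 12938 genes tested, 72.6% passed, 35.8% as higher and 36.8% as lower, so the share of phosphatase genes called is read against a background in which most genes were called. Ptprd, Ptprv and Ptpn7 passed the filter on low counts only through the group in which they were high. Ptprb also needed its Mock-labelled libraries to pass, as STAT6 replicate 3, at 0.245 CPM, was under the filter's cutoff of 0.443 CPM. The numbers of genes called are therefore no support for a change of the family.

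At least 1.5-fold changes were found in 1 receptor-type gene as higher (Ptprv) and 2 as lower (Ptprd and Ptprb). Of the non-receptor genes 2 rose by as much (Ptpn7 and Ptpn11) and 0 fell by as much, with 4 called lower at a smaller fold by edgeR. The background for this rule was 29.1% of all genes tested, 17.8% higher and 11.3% lower. The median log2 fold change was 0.03 for the 10 receptor-type genes and 0.21 for the 12 non-receptor genes, beside -0.003 for all genes tested. The receptor-type median falls in a gap between Ptpre (-0.14) and Ptpra (0.19), and it was -0.05 with scaling to library totals alone. The order of the class medians turned with a filter of 1 CPM in 3 libraries (0.20 for receptor-type and 0.16 for non-receptor genes), without STAT6 replicate 2 (0.212 for receptor-type and 0.195 for non-receptor genes) and without Mock replicate 1 (0.18 for receptor-type and 0.11 for non-receptor genes). In 18 of the 22 tested genes no library of one group overlapped the other group, where 74.6% of all genes did so. The difference between the classes was not tested.

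**Figure D1:**
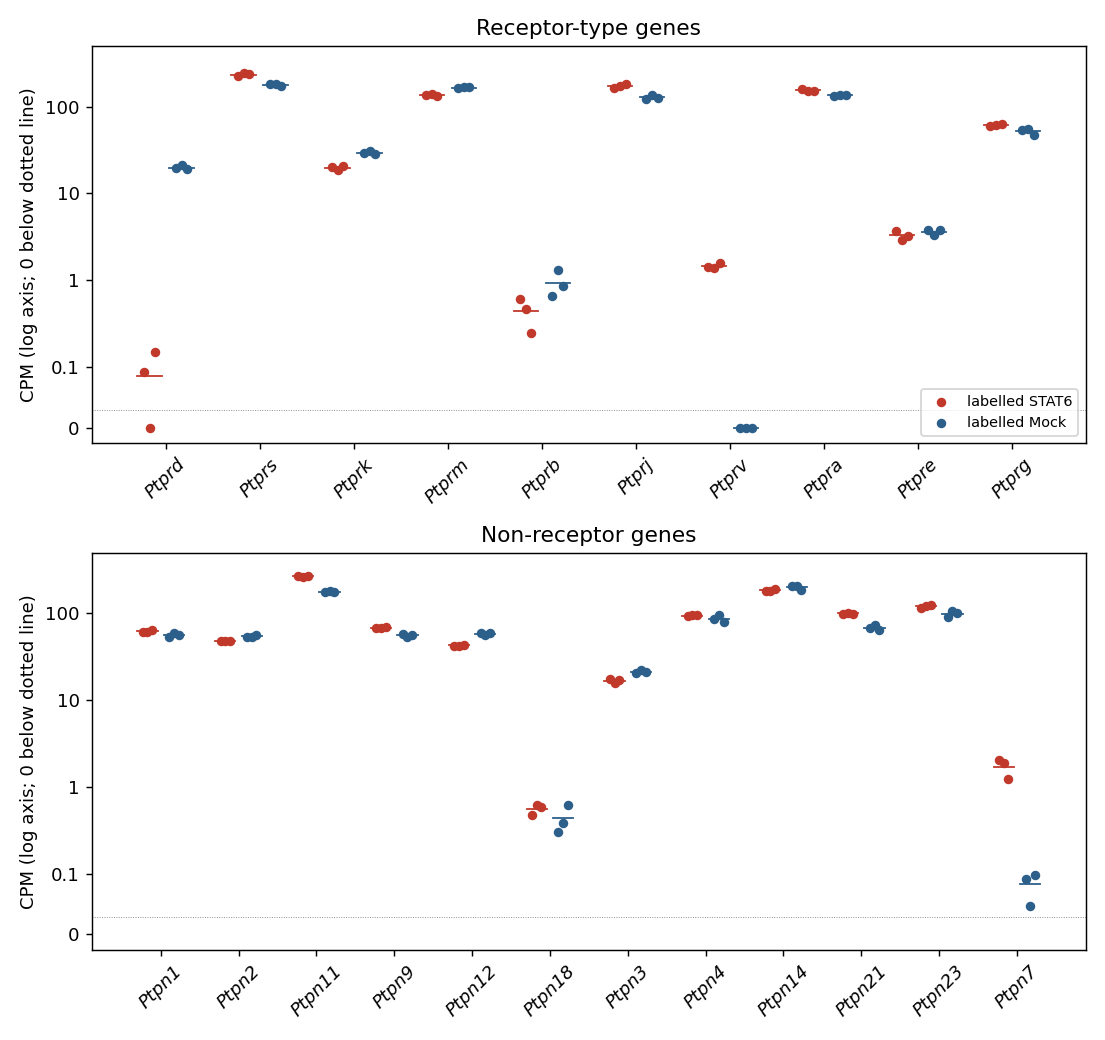
CPM of the 22 tested phosphatase genes in each library on a log axis, receptor-type genes above and non-receptor genes below, with STAT6-labelled libraries in red to the left of the Mock-labelled ones in blue. Points are libraries, short lines are group means, and values of 0 sit under the dotted line. Ptprd is near 0 in the STAT6-labelled libraries while Ptprv is at 0 in all 3 Mock-labelled libraries. CPM is not corrected for transcript length, so levels of different genes are not comparable.

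Both classes, summed over all their members, stood at a slightly higher level in the STAT6-labelled libraries, without a test. Such sums follow the genes with the most counts, so they are no statement about most members. Means were 269 CPM with the STAT6 label and 179 CPM with the Mock label for Ptpn11. They were 233 and 178 CPM for Ptprs, and 174 and 129 CPM for Ptprj, in the same order. In each class 4 tested genes were called lower. Receptor-type genes summed to 785.7 ± 13.2 CPM in the STAT6-labelled libraries and 712.8 ± 17.9 CPM in the Mock-labelled ones (SD, n = 3 each). Non-receptor genes summed to 1012 ± 15.1 CPM in the STAT6-labelled libraries and 883.2 ± 25.6 CPM in the Mock-labelled ones. Receptor-type genes held 43.5%, 44.0% and 43.6% of the family's counts in the STAT6-labelled libraries, against 44.6%, 44.6% and 44.8% in the Mock-labelled ones. The groups did not overlap in this share, but they lay close to each other.

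The LAR branch, whose ectodomains bind heparan and chondroitin sulfate proteoglycans and synaptic adhesion partners, held members that differed sharply from each other. Ptprd had 2, 0 and 3 counts in the STAT6-labelled libraries, against 451, 486 and 576 counts in the Mock-labelled ones. That is 0.0864, 0 and 0.147 CPM with the STAT6 label against 19.6, 20.9 and 18.8 CPM with the Mock label, with -7.86 as the log2 fold change (SE 0.22, adjusted p = 5.02e-27). From the summed counts, 5 with the STAT6 label and 1513 with the Mock label, the ratio of Mock over STAT6 was 248 (exact 95% counting interval 106 to 765). Every STAT6-labelled library was thus near 0, and no Mock-labelled library was. Ptprs, its close relative and a receptor for proteoglycans on growing axons, stood at 223, 241 and 236 CPM in STAT6-labelled libraries against 181, 182 and 171 CPM in Mock-labelled ones, and rose (log2 fold change 0.39, SE 0.03, adjusted p = 2.73e-12). Ptprf, which encodes LAR itself, was close to undetected, with 1, 2 and 4 counts in the STAT6-labelled libraries and 5, 3 and 7 in the Mock-labelled ones, and was not tested. Of this branch, Ptprs was therefore the member with an appreciable level in both groups.

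In the MAM branch, whose members bind copies of themselves on neighbouring cells and act on cadherins and catenins, both tested genes fell. Ptprk was at 20.1, 18.5 and 20.8 CPM in the STAT6-labelled libraries, against 29.4, 30.8 and 28.3 CPM in the Mock-labelled ones (log2 fold change -0.57, SE 0.06, adjusted p = 4.3e-10). Ptprm was at 137, 138 and 134 CPM in STAT6-labelled libraries against 162, 166 and 166 CPM in Mock-labelled ones, a smaller fall (log2 fold change -0.27, SE 0.03, adjusted p = 5.93e-09). Neither gene's groups overlapped. The other members were under the filter. Ptpru had 33 counts over the STAT6-labelled libraries and 19 over the Mock-labelled ones, and Ptprt, a gene mostly of brain, had 6 with the STAT6 label and 2 with the Mock label.

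Members of the branch with a chain of fibronectin repeats went different ways. Ptprj (DEP-1, or CD148), which dephosphorylates growth factor receptors and Src family kinases, was at 165, 174 and 183 CPM in the STAT6-labelled libraries against 122, 137 and 126 CPM in Mock-labelled ones, and rose (log2 fold change 0.44, SE 0.04, adjusted p = 4.32e-09). Ptprv, known in the mouse as the osteotesticular phosphatase OST-PTP and as a target gene of p53, had 33, 27 and 32 counts in the STAT6-labelled libraries and 0 in each of the Mock-labelled ones. At 1.43, 1.39 and 1.57 CPM it was low but even across its libraries. The difference was at least 37.4-fold higher against a floor of 3 counts over the Mock group (adjusted p = 8.03e-12), and 0 counts there allow up to 0.0391 CPM. The exact 95% counting interval of the ratio, with 92 counts over the STAT6-labelled libraries and 0 over the Mock-labelled ones, has a lower limit of 29.8.

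Ptprb, the vascular endothelial phosphatase VE-PTP, was lower at 0.605, 0.464 and 0.245 CPM in the STAT6-labelled libraries, against 0.651, 1.29 and 0.850 CPM in Mock-labelled ones (log2 fold change -1.05, SE 0.36, adjusted p = 0.0103). The nearest libraries of the groups were close, and the call rests on few counts: it was lost without STAT6 replicate 3 (adjusted p = 0.0791) or Mock replicate 2 (adjusted p = 0.0846). Endothelial markers, 8 genes, summed to 2.25 to 2.79 CPM in the STAT6-labelled libraries and 0.948 to 1.43 CPM in the Mock-labelled ones. Most of this was Vwf and Pecam1. Vwf was at 1.425, 1.391 and 2.205 CPM with the STAT6 label and 1.389, 0.905 and 0.916 CPM with the Mock label. Pecam1 was at 0.777, 0.928 and 0.441 CPM with the STAT6 label and 0.0434, 0 and 0.229 CPM with the Mock label. Kdr, Tek and Tie1 had 0 to 3 counts in each library, Tie1 only in Mock replicate 2. Cdh5, Emcn and Cldn5 had 0 counts in all 6. The part of these markers in the value of Ptprb was not tested.

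Receptors with a short or a carbonic anhydrase-like ectodomain were slightly higher or did not pass. Ptpra, which activates Src family kinases by removing their inhibitory phosphate, was at 159, 151 and 153 CPM in the STAT6-labelled libraries and 133, 135 and 136 CPM in the Mock-labelled ones (log2 fold change 0.19, SE 0.03, adjusted p = 5.12e-06). Its relative Ptpre was at 3.67, 2.94 and 3.23 CPM in STAT6-labelled libraries against 3.78, 3.28 and 3.83 CPM in Mock-labelled ones. The groups of Ptpre overlapped, and the log2 difference of -0.14 had a 95% interval of -0.46 to 0.18 (adjusted p = 0.421). Ptprg, which binds contactins, was at 59.2, 61.4 and 62.8 CPM in STAT6-labelled libraries against 53.1, 55.9 and 47.5 CPM in Mock-labelled ones and rose (log2 fold change 0.23, SE 0.05, adjusted p = 0.000117). Its relative Ptprz1, a receptor of glia that binds pleiotrophin, had 4 counts over the STAT6-labelled libraries and 5 over the Mock-labelled ones. Markers of neurons and glia, 8 genes, summed to 56.1 to 60.6 CPM with the STAT6 label and 55.6 to 56.3 CPM with the Mock label, with Olig2 at 0 counts.

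**Figure D2:**
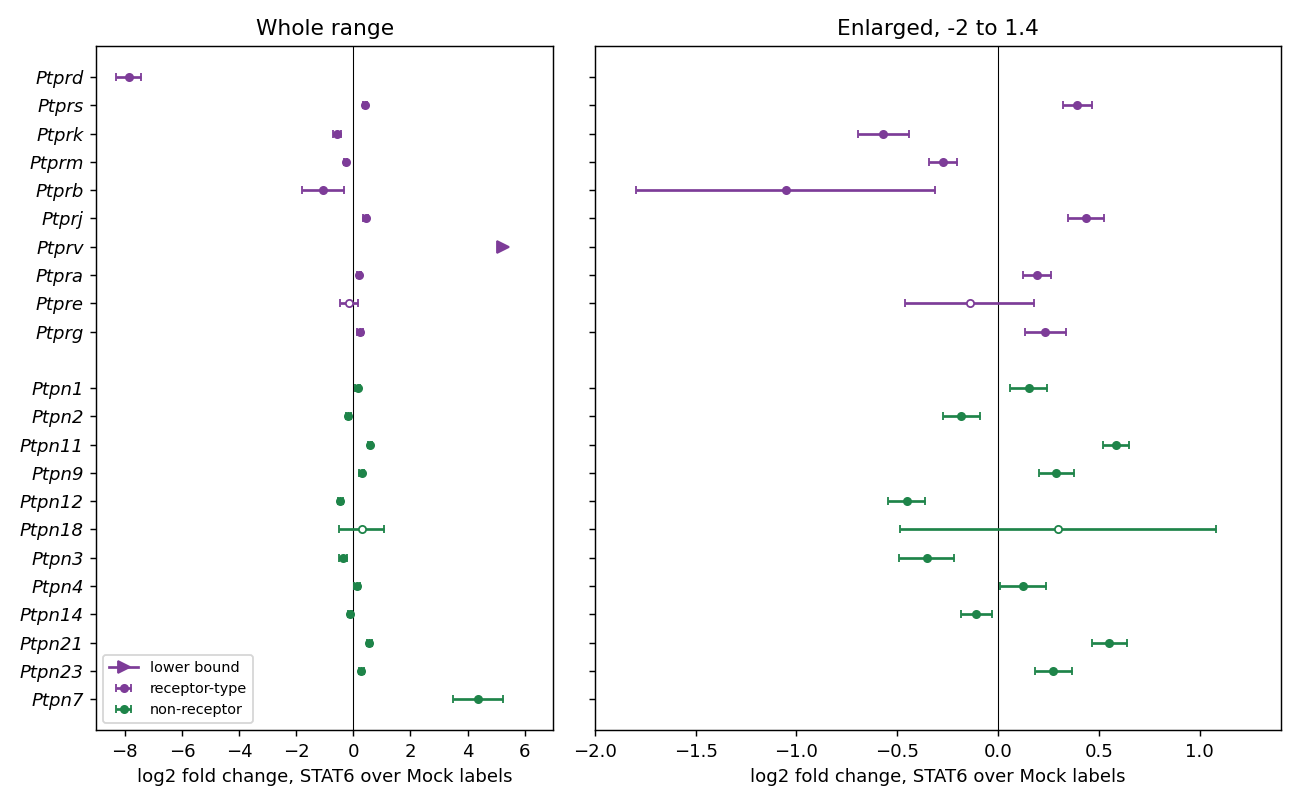
Log2 fold change of the STAT6-labelled libraries over the Mock-labelled ones for the 22 tested genes, with 95% intervals, over the whole range on the left and from -2 to 1.4 on the right. Receptor-type genes are purple, non-receptor genes green, open circles did not pass the test, and the arrowhead marks the lower bound for Ptprv. Apart from Ptprd, Ptprv, Ptprb and Ptpn7, all points lie between -0.57 and 0.59.

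The other 11 receptor-type genes, Ptprf, Ptprt, Ptpru and Ptprz1 among them, did not reach the filter. The leucocyte receptor CD45 (Ptprc) had 3 counts over the STAT6-labelled libraries and 1 over the Mock-labelled ones. Ptpro of podocytes and Ptprq of inner ear hair cells had 3 counts each over the STAT6-labelled and 3 each over the Mock-labelled libraries, and Ptprh, Ptprr and Ptprn2 had 1 count each over all 6 libraries. Ptprn, a protein of dense-core secretory granules with an inactive phosphatase domain, was lower in counts than Ptpru but more uneven between groups. It had 4, 10 and 3 counts in the STAT6-labelled libraries, against 0, 0 and 1 count in the Mock-labelled ones, a ratio of 20.7 (exact 95% counting interval 3.25 to 867). Without a filter on low counts this gene passed as higher (adjusted p = 0.00132), while Ptpru did not (adjusted p = 0.0901). Synpo, an actin-binding gene on the podocyte marker list, made up most of that list's sum of 400 to 427 CPM in the STAT6-labelled libraries and 85.4 to 93.2 CPM in the Mock-labelled ones, with Nphs1 at 0 or 1 count in each library.

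Among non-receptor genes the SH2-domain phosphatase Ptpn11 (SHP2), which relays growth factor signals to the Ras pathway, had the smallest adjusted p. It was at 269, 264 and 273 CPM in the STAT6-labelled libraries, against 177, 182 and 178 CPM in the Mock-labelled ones (log2 fold change 0.59, SE 0.03, adjusted p = 3.41e-18). The groups did not overlap. Its fold sits on the 1.5-fold line, and a test for a change beyond that line did not pass (glmTreat, adjusted p = 0.822).

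Ptpn7, a phosphatase of haematopoietic cells that binds MAP kinases, had the largest fold of the non-receptor genes at a low level. It had 47, 37 and 25 counts in the STAT6-labelled libraries, against 2, 1 and 3 counts in the Mock-labelled ones. That is 2.03, 1.91 and 1.23 CPM with the STAT6 label against 0.0868, 0.0431 and 0.0981 CPM with the Mock label, with no overlap. The log2 fold change was 4.38 (SE 0.43, adjusted p = 3.41e-11), and the ratio of summed counts was 22.2 (exact 95% counting interval 9.86 to 61.7). Leucocyte markers also had the higher sum there, without a test, but were near 0. The 12 genes summed to 1.08 to 1.44 CPM in the STAT6-labelled libraries and 0.556 to 0.647 CPM in the Mock-labelled ones, with Cd3e, Cd3g, Itgax and Adgre1 at 0 counts in all 6. Their part in the value of Ptpn7 was not tested. The lymphocyte phosphatase Ptpn22 had 9 counts over the STAT6-labelled libraries and 4 over the Mock-labelled ones, and Ptpn5, a MAP kinase phosphatase of brain, had 0 counts in all 6, which allows up to 0.0215 CPM. Ptpn13 and Ptpn20 had 1 and 2 counts in the STAT6-labelled libraries and 0 in the Mock-labelled ones.

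Ptpn1 and Ptpn2, close relatives that dephosphorylate the insulin receptor and JAK and STAT proteins, moved apart by small amounts. Ptpn1 (PTP1B), held at the endoplasmic reticulum, was at 61.7, 62.0 and 64.1 CPM in the STAT6-labelled libraries and 53.1, 59.5 and 56.4 CPM in the Mock-labelled ones (log2 fold change 0.15, SE 0.04, adjusted p = 0.00317). That call was lost with scaling to library totals alone (log2 fold change 0.08, adjusted p = 0.118). Ptpn2 (TC-PTP) was at 48.4, 48.3 and 48.4 CPM in STAT6-labelled libraries against 53.6, 54.0 and 56.7 CPM in Mock-labelled ones, a fall (log2 fold change -0.18, SE 0.04, adjusted p = 0.000471). The STAT6-labelled libraries were almost identical for Ptpn2.

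Of the phosphatases with FERM domains, which bind membrane proteins and the actin cortex, the members of each pair had log2 differences of opposite sign. Ptpn21, linked to Src and growth factor signals, was at 99.5, 103 and 99.9 CPM in the STAT6-labelled libraries against 68.0, 73.9 and 64.7 CPM in Mock-labelled ones, and rose (log2 fold change 0.55, SE 0.04, adjusted p = 8.99e-14). Ptpn14, an inhibitor of the coactivator YAP, was at 184, 181 and 193 CPM in STAT6-labelled libraries against 208, 207 and 187 CPM in Mock-labelled ones, and its groups overlapped. Its log2 fold change of -0.11 passed (SE 0.04, adjusted p = 0.0132) but not without STAT6 replicate 2 (adjusted p = 0.0909) or Mock replicate 1 (adjusted p = 0.063). Ptpn3, with a PDZ domain as well, fell to 17.5, 15.7 and 16.9 CPM in the STAT6-labelled libraries, against 20.8, 22.4 and 21.0 CPM in the Mock-labelled ones (log2 fold change -0.36, SE 0.07, adjusted p = 1.65e-05). Its relative Ptpn4 was at 93.7, 94.9 and 95.4 CPM in STAT6-labelled libraries against 85.3, 96.3 and 79.8 CPM in Mock-labelled ones. The groups of Ptpn4 overlapped. Its log2 difference of 0.12 was at the threshold (SE 0.05, adjusted p = 0.0489) and lost the call with scaling to library totals alone (adjusted p = 0.369), with upper-quartile scaling (adjusted p = 0.063) and with DESeq2 (adjusted p = 0.0509). Leaving out Mock replicate 2 gave an adjusted p of 1.49e-05, and leaving out each of the other 5 libraries in turn gave 0.103 to 0.28.

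The remaining non-receptor genes act at adhesions and on vesicles. Ptpn12 (PTP-PEST), which dephosphorylates the focal adhesion proteins p130Cas and paxillin, fell to 42.5, 42.8 and 43.5 CPM in the STAT6-labelled libraries, against 60.1, 56.5 and 59.6 CPM in the Mock-labelled ones (log2 fold change -0.45, SE 0.05, adjusted p = 5.21e-11). Ptpn9, a regulator of secretory vesicle fusion, was at 68.3, 67.5 and 70.2 CPM in STAT6-labelled libraries against 58.4, 53.4 and 56.7 CPM in Mock-labelled ones (log2 fold change 0.29, SE 0.04, adjusted p = 3.27e-07). Ptpn23, which sorts receptors in endosomes with the ESCRT complexes, was at 115, 122 and 124 CPM in STAT6-labelled libraries against 91.5, 106 and 101 CPM in Mock-labelled ones (log2 fold change 0.27, SE 0.04, adjusted p = 6.9e-06). Both of these rose with no overlap between groups. Ptpn18, a relative of Ptpn12, was at 0.475 to 0.618 CPM in STAT6-labelled libraries against 0.304 to 0.621 CPM in Mock-labelled ones, and its log2 difference of 0.30 had a 95% interval of -0.49 to 1.08 (adjusted p = 0.495).

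**Figure D3:**
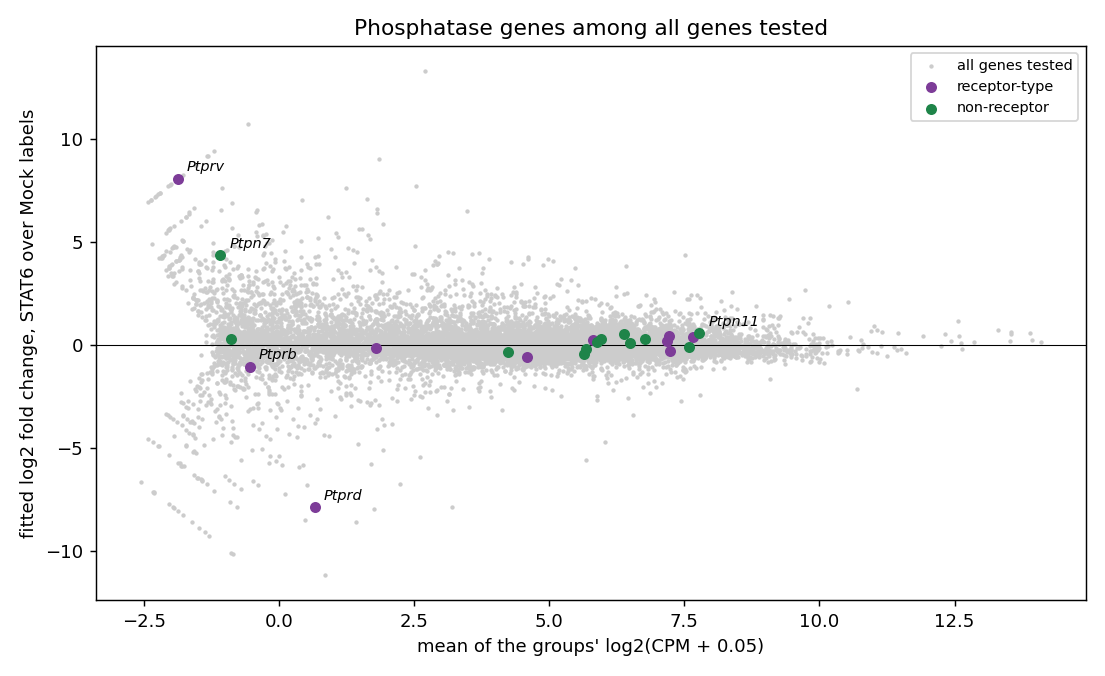
Fitted log2 fold change of the STAT6-labelled libraries over the Mock-labelled ones against mean level, as the mean of the groups' log2(CPM + 0.05), for all 12938 genes tested in grey and phosphatase genes in colour. Most phosphatase genes with a high level lie close to 0, and Ptprd, Ptprv and Ptpn7 lie far out at low mean level. The height of Ptprv depends on the prior count of the fit, since its Mock-labelled libraries hold 0 counts.

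Ratios of related genes within a library do not depend on how the libraries are scaled. Ptpn21 over Ptpn14 was 0.542 ± 0.0235 in the STAT6-labelled libraries and 0.344 ± 0.0154 in the Mock-labelled ones (SD, n = 3 each). Ptpn1 over Ptpn2 was 1.29 ± 0.0262 in the STAT6-labelled libraries and 1.03 ± 0.0641 in the Mock-labelled ones. The ratio of Ptpn4 to Ptpn3 was 5.68 ± 0.352 in the STAT6-labelled libraries and 4.06 ± 0.254 in the Mock-labelled ones. Ptprm over Ptprk was 6.90 ± 0.523 with the STAT6 label and 5.59 ± 0.246 with the Mock label. Ptpra over Ptpre was 47.4 ± 4.07 with the STAT6 label and 37.4 ± 3.37 with the Mock label. Each of the 5 ratios was higher in every STAT6-labelled library than in any Mock-labelled one. Which gene was put over the other sets the direction, so that all were higher is no result. Of all single genes tested, 74.6% also had no overlap between the groups, and no share over other gene pairs was taken. The exact permutation test, 2-sided, gave p = 0.1 for each ratio, the smallest that 20 assignments of the libraries allow, and 0.1 when adjusted over the 5 ratios. Because Ptprd had 0 counts in one library, Ptprs over Ptprd was not formed.

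**Figure D4:**
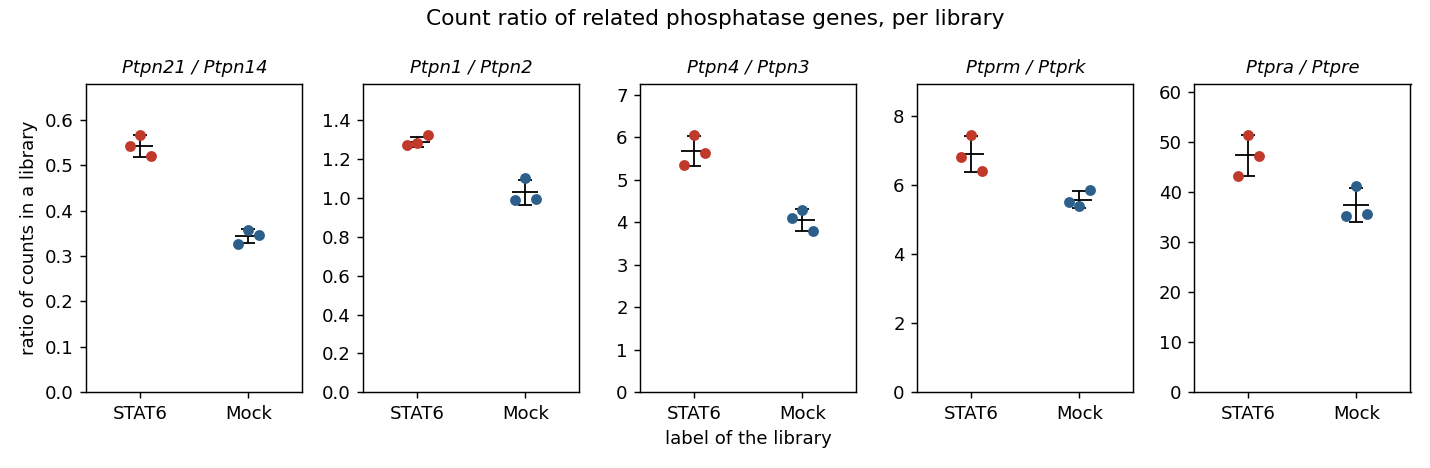
Ratio of the counts of 2 related phosphatase genes in each library, with STAT6-labelled libraries left of the Mock-labelled ones, points for libraries and black marks for the mean and SD. All axes start at 0. In each of the 5 panels every STAT6 point lies above every Mock point.

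Genes whose products bind the phosphatases or are their substrates were mostly called in every list, beside 72.6% of all genes tested (35.8% higher and 36.8% lower). The share called ran from 64.3% for the docking partners of Ptpn11 to 100% for the partners of the LAR branch. Extracellular ligands and partners of the receptor type had 11 members higher and 6 lower of 20 tested, and their median on the log2 scale was 0.17. Those with the smallest adjusted p-values in each direction, given with their log2 fold changes, were Sdc3 (3.21), Hspg2 (1.74) and Gpc1 (1.12) as higher and Thbs1 (-2.02), Sdc2 (-0.39) and Lrrc4b (-0.82) as lower. Sdc1 (0.02) and Vcan (-0.20), proteoglycan genes like Sdc2 and Sdc3, did not pass. All 11 tested cytoplasmic partners of the LAR branch were called, 7 higher, among them the liprin genes Ppfibp1 (0.99) and Ppfibp2 (0.47), and 4 lower, with Enah, an actin regulator whose fly relative binds LAR, at -7.88 (median 0.40). Src family kinases and their regulators had 6 higher and 4 lower of 13 (median 0.02), with Ptk2b (1.88) and Fyn (1.15) higher and Csk (-0.41) lower. Of 10 JAK and STAT genes 8 were higher, such as Stat3 (0.93), and Stat6 was lower (median 0.46).

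Docking partners of Ptpn11 had 5 higher and 4 lower of 14 (median 0.05), a share called below the 72.6% of all genes, among them Irs2 (1.00) and Gab2 (0.70) as higher and Sirpa (-0.41) as lower. Receptor tyrosine kinases had 13 higher and 8 lower of 26 (median 0.12), with Axl at 3.92 and Epha3 at -4.73. Cadherins and catenins had 4 higher and 3 lower of 8 (median 0.12), with Ctnna1 (0.42) against Pkp4 (-0.52). Phosphatases of other families, among them the PRL, CDC25 and EYA genes, had 4 higher and 10 lower of 18 (median -0.17), with Ptp4a1 (0.61) higher and Eya1 (-2.34) and Cdc25b (-1.23) lower.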

How the data were processed

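Each file holds 1 whole-number count per gene symbol, deposited by the authors without normalization. The mRNA kit kept strand, per the labels' protocols. FastQC, STAR, Salmon, edgeR and the build GRCh37 appear in the submitters' processing notes, with no role or version. The step from reads to genes and its strand setting were not given in the sources used here, so reads shared with an overlapping or antisense gene cannot be told apart.

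Counts were analysed with edgeR 4.0.16 in R 4.3.3: filterByExpr (minimum count 10; 12938 genes, 99.9% of counts), TMM scaling (factors 0.968 to 1.03) and the 2-sided quasi-likelihood test with group as the only term, Benjamini-Hochberg adjusted over all genes tested at 0.05. CPM uses TMM-adjusted totals. Counts of 2 libraries of a group differed by a median chi-square 1.47 to 2.45 times counting noise, so none was a copy. Counting intervals cover counting error only. Alternatives used limma 3.58.1 (voom), DESeq2 1.42.0 and other settings named in the closing section.

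The members, branches, ratios and lists were chosen with earlier results of these data known. Values in all libraries are given for members past the threshold with at least a 1.5-fold change and for Ptpn1, Ptpn2, Ptpn11, Ptpra, Ptprf, Ptprj and Ptprk, and further members are given likewise. List genes named are among the 3 smallest adjusted p-values in each direction with a mean of at least 2 CPM. Sdc1 and Vcan, which did not pass, are named outside that rule. The files hold mouse symbols, so no coordinates or sequences are given.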

Additional observations from a re-analysis of the deposited data

How the results depend on the processing

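Of 306 refitted values of the 22 tested phosphatase genes, 293 kept their direction and their side of the threshold, 0 reversed, and 13 kept the direction but lost the call (8 of Ptpn4, 2 each of Ptpn14 and Ptprb, 1 of Ptpn1). An adjusted p under 0.01 on the same fit ended 3 calls, those of Ptpn4, Ptpn14 and Ptprb, which also lost calls in the refits. The test for a change beyond 1.5-fold, which keeps the fitted value, ended 17. That test (glmTreat) left 2779 of all genes, 1 receptor-type gene higher and 1 lower, and 1 non-receptor gene higher and 0 lower (0 also at an unadjusted p under 0.05), where edgeR, DESeq2 and limma-voom each called 4 non-receptor genes lower. It left 14 of 21 receptor tyrosine kinases, 11 ligands and partners, 5 phosphatases of other families, 5 JAK and STAT genes, 4 Src family genes, 4 docking partners of Ptpn11, 2 partners of the LAR branch and 2 cadherins and catenins. The class medians are loosely held: the receptor-type median was -0.047 with library totals alone, 0.22 without a filter, 0.20 with a filter of 1 CPM in 3 libraries and -0.033 to 0.212 with a library left out, while the non-receptor median was 0.14, 0.27, 0.16 and 0.11 to 0.23 under the same settings. A filter changes which genes enter a median. Without one, the median of all genes was 0.12. The replicate number as a block gave 9422 calls over all genes against 9399 and changed no call of a phosphatase gene. Same-numbered libraries correlated at 0.052, 0.102 and 0.031 in their deviations, of which only one is above 0.1, and no label states a pairing, so the numbers are not taken to pair the libraries. That 5 of 6 libraries correlated best with their own number is a hint of pairing from the data. Genes with few counts, such as Ptprb and Ptpn18, are limited by depth.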
